A study of Gallus gallus with 4 samples.

Results

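Surface ectoderm cells of the chick trunk were picked from single-cell RNA counts by their markers and compared with the other cells of the same libraries. A cell was taken as surface ectoderm when it had at least 2500 unique molecular identifiers (UMIs, the count of captured RNA molecules), at least 1 UMI for at least 3 of the 5 genes WNT6, TFAP2A, KRT14, CDH1 and TP63, and no UMI for SOX17, a transcription factor of the endoderm. The choice therefore rested on measured values, and these 6 genes are described below without a test. It gave 752 cells of the 25379 with at least 2500 UMIs, or 2.96% (95% exact Clopper-Pearson interval 2.76 to 3.18).

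The surface ectoderm is the outer epithelial sheet of the embryo and later forms the epidermis. It lies beside the neural plate, with the neural plate border between them, and it rests on a basement membrane that separates it from the mesoderm. Its cells are held together by E-cadherin, tight junctions and desmosomes, carry keratin filaments, and are specified under BMP signals by transcription factors of the TFAP2, DLX, GATA and GRHL families.

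The cells came from unmanipulated chick embryos at 4S, 7S, 10S and 13S, stages named by the number of somites. Each stage was 1 droplet library of 3′ ends, made from at least 4 pooled embryos after the tissue in front of the third somite had been cut away. Stage and library therefore cannot be told apart, and stages were not tested against each other. Cells of 3 sets served for comparison, namely endoderm-marker cells (182, with at least 3 of 5 endoderm genes, among them SOX17, FOXA1, FOXA2 and TTR), neural-marker cells (401, with at least 3 of SOX1, SOX2, SOX3, SOX21 and PAX6 and no TBXT) and all 24627 other cells. Endoderm-marker and neural-marker cells also had to have fewer than 3 of the 5 surface ectoderm markers.

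By stage, in the order 4S, 7S, 10S and 13S, the 752 cells were 96, 111, 267 and 278. They made up 2.39% (1.94 to 2.9) of the 4S library and 1.88% (1.55 to 2.26) of the 7S library. In the 10S library the share was 3.08% (2.73 to 3.47), and in the 13S library it was 4.1% (3.64 to 4.6). Intervals cover counting error only. These shares depended on depth. With every cell thinned at random to 2500 UMIs before the markers were read, 6, 48, 50 and 54 cells met the rule, or 0.149%, 0.812%, 0.577% and 0.797% at 4S, 7S, 10S and 13S, so the order of 4S and 7S turned round and no order of stages is read from either set of shares.

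Surface ectoderm cells had more UMIs than the other cells of their library, with medians of 10404.5, 4836, 7824 and 9257.5 at 4S, 7S, 10S and 13S, against 8812, 3741.5, 7164.5 and 7389 in the other cells. The rule itself leans toward deeper cells, since markers are seen more easily in them. Median UMIs were 7629.5, 8859 and 9438.5 in cells with 3, 4 and 5 markers, whether or not they had SOX17. The difference in depth is therefore not read as a trait of the tissue. Summed over cells, surface ectoderm cells gave 1063026, 581459, 2196238 and 2672096 UMIs in the same order, so values at 7S are the least precise. The 7S library was also the shallowest of the 4. Of all barcodes 73 occurred in more than 1 library, among them those of 7 surface ectoderm cells. Levels are given as CPM, the UMIs of a gene per 1000000 UMIs of the summed cells, as 4 values in the order 4S, 7S, 10S and 13S unless another is named.

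Among the genes of the rule, TFAP2A was detected most often, in 86.7% of surface ectoderm cells and 3.64% of other cells. WNT6, a secreted WNT ligand, was detected in 77.1% and 1.9%, and CDH1, which encodes E-cadherin, in 73.3% and 4.13%. The basal keratin KRT14 was found in 57% of surface ectoderm cells and 2.19% of other cells, and TP63, a regulator of stratified epithelia, in 47.1% and 1.44%. The combination of WNT6, TFAP2A and CDH1 was the most frequent one, in 118 cells (15.7%), and 38 cells (5.05%) had all 5 markers. Another 3 cells met the marker count but had SOX17 and were counted among the other cells.

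The edge of the rule did not fall at a step in the other genes. In these genes, cells just outside the rule, with exactly 2 markers and no SOX17 (685 cells), lay nearer to cells with 3 markers (480 cells) than to cells with none. EPCAM averaged 515 ± 55.5 CPM with 3 markers, 467 ± 35.8 CPM with 2 markers and 95.9 ± 26.2 CPM with none (SD over 4 libraries). FABP3 averaged 601 CPM with 3 markers, 445 with 2 and 16.8 with none. The cadherin of mesenchyme and neural tissue, CDH2, averaged 52.8 CPM with 3 markers, 100 with 2 and 586 with none, and the somite gene TCF15 averaged 12.4, 13.6 and 296 CPM. At 10S and 13S CDH2 had 26.6 and 15.9 CPM with 3 markers, against 84.5 and 96.8 CPM with 2. The 752 cells are thus the cells in which these markers were seen, not every cell of the sheet, and the other cells still hold some that resemble them.

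**Figure D1:**
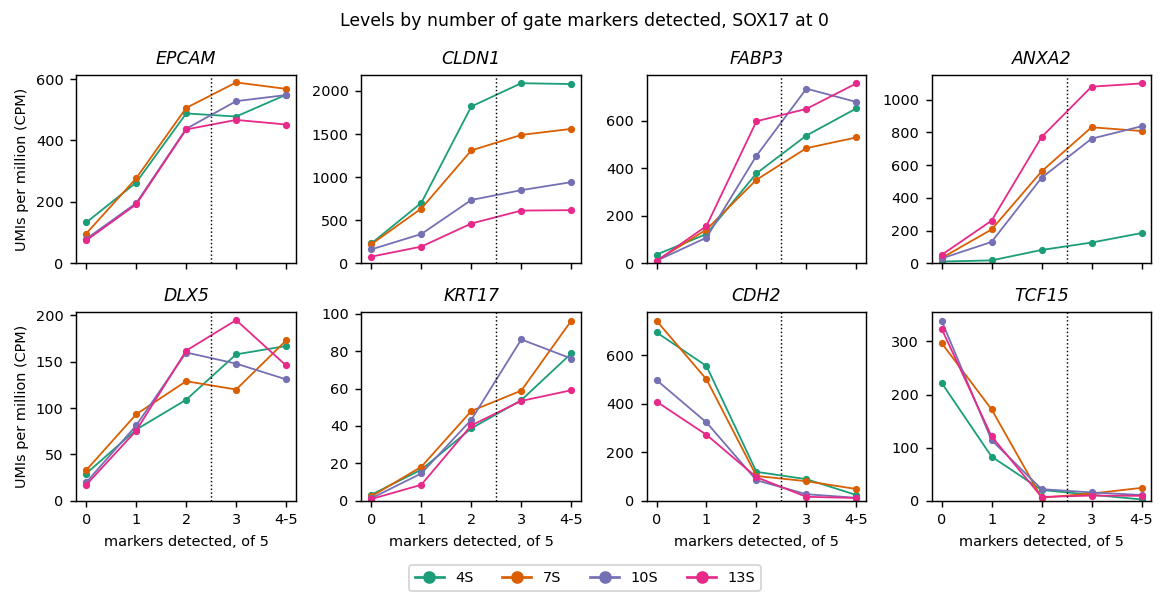
Level of 8 genes outside the rule (CPM, y axis) in cells grouped by the number of the 5 markers detected (x axis), with SOX17 at 0 and 1 line for each library. The dotted line marks the edge of the rule, and EPCAM averaged 467 CPM just outside it and 515 CPM just inside it.

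Genes beyond the rule were tested between surface ectoderm cells and all other cells with edgeR's quasi-likelihood test on the sums per library. The library was a block, and p-values were adjusted by Benjamini-Hochberg over 11316 genes. A gene was tested if it passed a filter on low counts, which its level in either group alone can meet. It can then hardly be called higher in the other group, so list counts and medians lean toward the group where such genes are high. At an adjusted p under 0.05, 1519 genes (13.4%) were higher in surface ectoderm cells and 1506 (13.3%) were lower, and the median log2 fold change of all genes was -0.03. Of these calls, 1350 of the higher and 1403 of the lower had the same direction in 4 of 4 libraries. Fold changes are given as log2 of surface ectoderm over the other cells with their standard error (SE). Without the 10S library 925 genes were lower. The 4 libraries differ in embryos and in stage, and the block removes what both groups of a library share. The spread used by the test is how far the difference between the groups varies from library to library.

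The gene furthest above the other cells by the naming rule was VGLL1, a cofactor of TEAD transcription factors. It had 24.5, 17.2, 21.4 and 24.3 CPM in surface ectoderm cells, against 0.413, 0.753, 1.11 and 0.893 CPM in other cells (log2 fold change 4.83, SE 0.295, adjusted p = 3.75e-09). UPK1B, a uroplakin of epithelial surfaces, had 182, 120, 71.5 and 69.6 CPM, against 4.3, 6.23, 4.18 and 5.1 CPM (4.41, SE 0.192, adjusted p = 7.4e-11). Neither gene overlapped between the groups, and UPK1B was highest at 4S within the surface ectoderm cells. FABP3, a fatty acid-binding protein, had 583, 500, 713 and 693 CPM in surface ectoderm cells and 49.2, 27.1, 31.2 and 45.5 CPM in other cells (4.09, SE 0.133).

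The remaining genes of this kind were of varied roles. The secreted chemokine CXCL12 had 292, 652, 478 and 577 CPM in surface ectoderm cells and 41.6, 44.5, 32.9 and 38.8 CPM in other cells (3.67, SE 0.157). SOSTDC1, a secreted antagonist of BMP and WNT signals, had 34.8, 105, 71.9 and 106 CPM, against 2.78, 7.74, 6.07 and 8.64 CPM (3.69, SE 0.124). The metalloprotease gene ASTL stood out for its spread over stages, with 324, 58.5, 24.6 and 28.8 CPM in surface ectoderm cells and 11.1, 5.56, 2.67 and 2.48 CPM in other cells (3.93, SE 0.229). COL14A1, a collagen that associates with fibrils, differed by 4.26 on the log2 scale, SMAGP, a small transmembrane protein of epithelia, by 4.03, NEDD9, an adhesion scaffold, by 3.9, CSRP2, a LIM domain protein, by 3.87, and EMILIN2, a matrix glycoprotein, by 3.49. CRYBG2, ZNF385C, NPBWR2, AIFM3 and PKIB differed by 4.08, 3.71, 3.69, 3.49 and 3.45. KRT17, ANXA2 and GRHL3, described with their groups, were also among the 20 genes with the largest rise of 744 eligible ones.

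Transcription factors of the ectoderm were mixed. Of 31 list genes tested, 16 were higher and 7 were lower in surface ectoderm cells, with a median log2 fold change of 1.2 against -0.03 over all genes tested. Some were near the floor in other cells, such as TFAP2B (0.503 CPM), and some in surface ectoderm cells, such as PITX1 (0.0936 CPM). Such genes pass the filter by the level of the higher group, so the count and median are partly set by the filter. GRHL3, a regulator of the epidermal barrier, had 99.7, 55, 46.4 and 22.1 CPM in surface ectoderm cells, against 3.88, 4.94, 4.06 and 2.93 CPM in other cells (3.71, SE 0.231). DLX5, a homeobox gene of the non-neural ectoderm, had 162, 139, 141 and 175 CPM, against 33.8, 38.9, 28.8 and 28.3 CPM (2.34, SE 0.119, adjusted p = 4.57e-10). Its relatives DLX3 and DLX6 were higher by 2.65 and 2.88 (DLX6 by 1.53 with adjusted p = 0.089 in cells with at least 4 markers), TFAP2B and TFAP2C by 4.03 and 4.51, and GATA3 by 3.17. GATA2 was higher as well (1.4, SE 0.221), with 200, 87.7, 87 and 115 CPM in surface ectoderm cells and 114, 60.4, 34.1 and 21.1 CPM in other cells, so that the groups overlapped.

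MSX genes and SP genes did not share a direction. MSX2 was higher by 0.94 (SE 0.14). MSX1 was lower by the test (log2 fold change -0.36, adjusted p = 0.0163), but without the 7S library this was no longer called (-0.22, adjusted p = 0.0676). SP5, a WNT target, was lower (-1.89, SE 0.268), whereas SP8 was higher (1.2, SE 0.123).

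Keratins form the intermediate filaments of epithelia, and 5 of the 6 tested were higher and none lower, with a median of 2.31. These 6 were the ones of 11 measured keratins that passed the filter on low counts. KRT24 had 1050, 1530, 1530 and 961 CPM in surface ectoderm cells, against 237, 376, 317 and 203 CPM in other cells (2.21, SE 0.0793). KRT17, a keratin of activated epidermis, had 64, 72.2, 82.4 and 55.8 CPM, against 4.79, 4.35, 3.55 and 3.09 CPM (4.19, SE 0.172). The groups did not overlap for either gene. KRT7 and KRT18, keratins of simple epithelia, were higher by 2.41 and 1.77, and KRT23 by 3.64.

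Cell junction genes were higher or did not pass the test. Of 17 genes of tight junctions and polarity, 9 were higher and none lower (median 1.27). CLDN1, a claudin that seals the epidermis, had 2080, 1510, 885 and 614 CPM in surface ectoderm cells, against 296, 273, 192 and 103 CPM in other cells (2.55, SE 0.0854). CLDN3 had 253, 194, 217 and 184 CPM, against 23.5, 21, 23.3 and 20.4 CPM (3.29, SE 0.0853). The junction proteins occludin (OCLN, 1.6) and cingulin (CGN, 1.76) were higher, whereas ZO-1 (TJP1, 0.19, adjusted p = 0.2) did not pass the test.

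Of 12 genes of adherens junctions and desmosomes, 7 were higher and none lower (median 0.45). EPCAM, an epithelial adhesion molecule, had 507, 581, 535 and 461 CPM in surface ectoderm cells, against 158, 124, 104 and 101 CPM in other cells (2.16, SE 0.107, adjusted p = 3.42e-10). Desmoplakin (DSP), which links desmosomes to keratins, was higher by 2.69 and plakoglobin (JUP) by 1.23. All 7 tested genes of epithelial splicing, trafficking and surface proteases were higher (median 2.07). Among them were the splicing factors ESRP1 (3.79) and ESRP2 (2.18), the receptor ERBB3 (2.07) and the membrane protease ST14 (2.05). These are the 7 of 10 measured genes that passed the filter on low counts, which a level in surface ectoderm cells alone can meet. The count and median therefore lean toward higher genes.

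The matrix genes on the basal side showed 13 higher and none lower of 21 tested (median 0.96). Some of these calls were fragile. COL17A1 (2.32 against 1.24 CPM) was higher in only 2 of 4 libraries, and its call was lost under 9 of 15 alternatives. The calls of NID1 and LAMC1 were lost or turned under 6 of 16 alternatives each, and that of LAMB2 under 4 of 15. Dystroglycan (DAG1), a laminin receptor, had 411, 423, 262 and 246 CPM in surface ectoderm cells, against 57.9, 92.8, 67.7 and 64.9 CPM in other cells (2.25, SE 0.111). Laminin beta 1 (LAMB1) was higher by 1.03, the type IV collagen COL4A1 by 1.08, agrin (AGRN) by 1.07 and the integrin ITGA3 by 1.47. For ITGB1, the partner of many integrin alpha chains, the log2 fold change was -0.06 (adjusted p = 0.638).

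Annexins, S100 proteins and actin-binding proteins gave 11 higher and 3 lower of 20 (median 0.9). ANXA2 had 151, 824, 791 and 1090 CPM in surface ectoderm cells, against 13.1, 56.3, 52.3 and 98.5 CPM in other cells (3.74, SE 0.0949, adjusted p = 3.16e-13). The 4S library was the lowest in both groups. ANXA11 was higher by 2.72, S100A11 by 3.22, S100A6 by 2.14 and the lectin LGALS3 by 2.6, whereas ANXA5 was lower (-1.8, SE 0.135).

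Mesenchymal genes were mostly lower, with 14 lower and 2 higher of 17 (median -2.74). CDH2 had 62.1, 68.8, 20.9 and 13.8 CPM in surface ectoderm cells, against 662, 707, 468 and 383 CPM in other cells (-3.98, SE 0.159, adjusted p = 3.04e-11). The transcription factors TWIST1 (-4.0), ZEB1 (-2.98), ZEB2 (-3.77) and SNAI1 (-1.23), which are known for promoting mesenchymal states, were lower. One of the 2 exceptions was large, since fibronectin (FN1) had 1210, 1630, 1190 and 920 CPM in surface ectoderm cells and 307, 255, 182 and 146 CPM in other cells (2.54, SE 0.115). The other was vimentin (VIM, 0.57, adjusted p = 0.00438), which was no longer called without the 7S library (0.47, adjusted p = 0.0626).

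**Figure D2:**
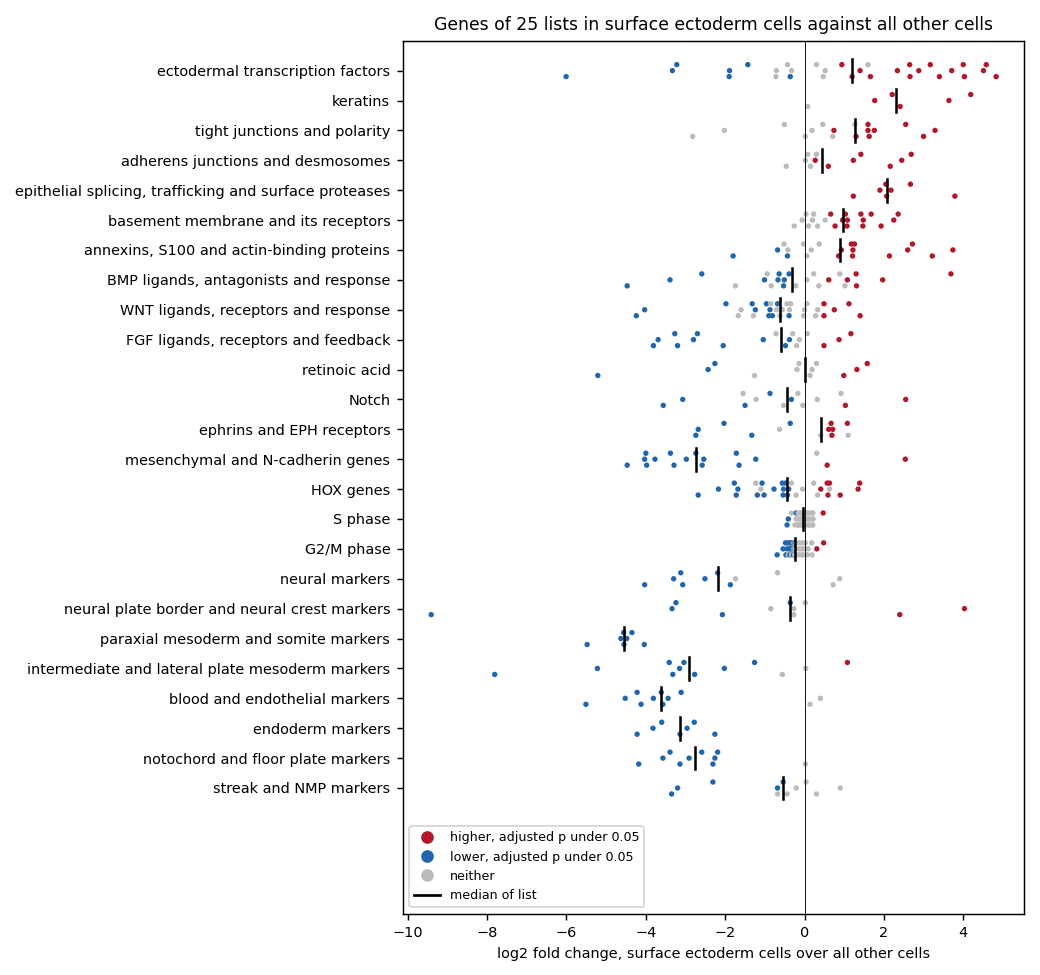
Log2 fold change of surface ectoderm cells over all other cells (x axis) for the tested genes of 25 lists (rows), coloured by the call at an adjusted p under 0.05, with a black bar at each list's median. Keratins had 5 of 6 genes higher and paraxial mesoderm markers 7 of 7 lower, and points of genes with no UMI in surface ectoderm cells, such as FOXF1, are fitted values and no bounds.

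Each signalling list held genes called higher and genes called lower, beside 13.4% higher and 13.3% lower among all genes tested. For WNT, FGF and Notch genes the part called higher was near that share and is not read as a result. Among BMP ligands, antagonists and response genes 6 were higher and 9 lower of 24 (median -0.31). The ligand BMP4 had 78.1, 67.1, 67.8 and 71.5 CPM in surface ectoderm cells, against 22.3, 38.4, 37.8 and 41.6 CPM in other cells (1.08, SE 0.133), and BMP7 was higher by 1.97. Of the antagonists, chordin (CHRD) had 13.2, 48.2, 19.1 and 13.1 CPM, against 254, 292, 212 and 150 CPM (-3.39, SE 0.155), follistatin (FST) was lower (-4.47) and noggin (NOG) was lower (-2.59), whereas SOSTDC1 was higher as given above. The BMP response genes ID1 (0.61) and ID3 (1.31) were higher. ID2 (-0.51) and SMAD6 (-0.53) were lower, SMAD6 not without the 7S library (-0.43, adjusted p = 0.0807), and for BAMBI the log2 fold change was -0.22 (adjusted p = 0.237).

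WNT genes gave 5 higher and 11 lower of 31 (median -0.62). The receptors FZD3 (1.4) and FZD6 (1.12) were higher and FZD2 (-1.98), FZD7 (-4.03) and FZD10 (-0.9) were lower. The ligand WNT5A (-0.87), the nuclear factor LEF1 (-0.81) and the secreted WNT enhancer RSPO3 (-4.24) were lower, and the target gene AXIN2 was higher (0.49, SE 0.0915). AXIN2 is one of the genes whose direction turned when the rule was applied to thinned cells (-0.1), and it was not called under the rule without CDH1 (0.3, adjusted p = 0.0937).

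FGF genes gave 3 higher and 10 lower of 18 (median -0.6), with genes of ligands among the lower ones. FGF8 had 5.64, 0, 4.55 and 6.36 CPM in surface ectoderm cells, against 17.6, 32.6, 48.7 and 67.7 CPM in other cells (-3.2, SE 0.239), and the ligands FGF10 (-3.69), FGF18 (-3.81) and FGF19 (-2.05) were lower. FGF13, another gene of the family, was lower as well (-3.27). FGF12 was higher (0.87). The receptor FGFR2 was higher by 1.17 (adjusted p = 0.00203) with all libraries and by 0.69 (adjusted p = 0.0557) without the 13S library, and for FGFR1 the log2 fold change was -0.13 (adjusted p = 0.35).

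In the retinoic acid pathway 3 genes were higher and 3 lower of 12 (median 0.0). ALDH1A2, the enzyme that makes retinoic acid in the trunk mesoderm, had 1.88, 5.16, 2.73 and 2.62 CPM in surface ectoderm cells, against 267, 118, 82.1 and 60.3 CPM in other cells (-5.21, SE 0.227). RDH10, an enzyme of the step before it, and the retinol transporter STRA6 were lower (-2.26 and -2.43). DHRS3, an enzyme that reduces retinal back to retinol, was higher (1.58), and so were the receptor RARB (1.32) and the binding protein CRABP2 (0.99).

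Notch genes gave 2 higher and 5 lower of 14 (median -0.43). The ligand JAG2 had 36.7, 48.2, 31 and 31.8 CPM in surface ectoderm cells, against 7.77, 6.94, 5.32 and 5.57 CPM in other cells (2.55, SE 0.17), and the receptor NOTCH2 was higher (1.03). The ligand DLL1 had 29.2, 31, 19.1 and 8.23 CPM, against 223, 333, 186 and 224 CPM (-3.56, SE 0.179). Among ephrins and their receptors 5 were higher and 5 lower of 13 (median 0.41), with EPHA1 higher by 0.71 (SE 0.126) and EFNB2 lower (-2.68).

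Cell cycle genes were counted by phase, beside 13.4% higher and 13.3% lower among all genes tested. Of 36 genes of S phase 1 was higher and 3 were lower (median -0.03), and of 39 genes of G2 and M phase 2 were higher and 16 lower (median -0.25). The chromatin protein HMGB2 had 620, 721, 639 and 520 CPM in surface ectoderm cells, against 884, 1020, 867 and 763 CPM in other cells (-0.47, SE 0.0688). CENPF, a centromere protein of dividing cells, was lower (-0.54), and for BIRC5 the log2 fold change was -0.07 (adjusted p = 0.553).

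Marker lists of mesoderm, blood, endoderm, notochord and streak had lower summed levels in surface ectoderm cells than in other cells, by differing amounts. All 7 tested markers of paraxial mesoderm and somites were lower (median -4.55). The summed level of the 12 measured ones was 21.3 to 61.9 CPM, against 711 to 848 CPM in other cells. Only these 7 of 12 passed the filter on low counts, which a level in the other cells alone can meet. Their count and median therefore lean toward lower genes. TCF15 had 7.53, 17.2, 13.7 and 9.36 CPM in surface ectoderm cells, against 199, 279, 308 and 291 CPM in other cells (-4.56, SE 0.129). TBX6 (-5.48), MEOX1 (-4.63), MSGN1 (-4.55), RIPPLY2 (-4.48) and FOXC2 (-4.04) were lower too. AGRP, the gene with the largest fall by the naming rule, had 1 UMI in surface ectoderm cells, at 4S, and 200, 2.55, 1.35 and 0.33 CPM in other cells.

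Of the blood and endothelial markers 9 of 11 were lower and none higher (median -3.61), with summed levels of 18 to 140 CPM, against 209 to 335 CPM. The vascular gene EGFL7 gave 124 CPM of the highest sum, at 4S, and did not pass the test (0.14, adjusted p = 0.806). Markers of endoderm were lower in 7 of 7 (median -3.14, 15.3 to 27.3 CPM against 144 to 265 CPM), of notochord and floor plate in 9 of 10 (median -2.75, 43.8 to 180 CPM against 429 to 778 CPM), of intermediate and lateral plate mesoderm in 9 of 12 with BMP4 higher (median -2.91, or -2.4 with FOXF1 at its bound, 115 to 152 CPM against 308 to 570 CPM). The 7 endoderm markers are those of 13 measured, SOX17 apart, that passed the filter on low counts. A level in the other cells alone can meet it, so the endoderm count and median lean toward lower genes. The same holds for the blood markers, 11 of 13, and those of intermediate and lateral plate mesoderm, 12 of 15. The endoderm sum, but not its 7 calls, includes SOX17, which the rule held at 0 in surface ectoderm cells. In other cells SOX17 had 25.7, 8.16, 4.5 and 2.15 CPM, so that part of the difference was set by the rule. Markers of the streak and neuromesodermal progenitors were lower in 5 of 11 (median -0.54) and kept a sum of 306 to 508 CPM, against 687 to 919 CPM, of which CDX4 had a mean of 209 CPM in surface ectoderm cells. FOXF1 had no UMI in surface ectoderm cells and was at least 2.79-fold lower, by a floor of 3 counts over the group. Its call was lost without the 7S library (adjusted p = 0.0532) and without the 10S library (adjusted p = 0.0684).

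Neural markers were lower in 7 of 11 and higher in none (median -2.19), with summed levels of 16.1 to 37.8 CPM, against 28.1 to 179 CPM. Of the neural plate border and neural crest markers, 2 were higher and 5 lower of 11 (median -0.36), with summed levels of 578 to 837 CPM, against 732 to 1070 CPM. The higher ones were TFAP2B and SOX9, and SOX9 had 32.9, 53.3, 46.4 and 63.2 CPM in surface ectoderm cells, against 4.79, 11.8, 10.9 and 11.6 CPM in other cells (2.4, SE 0.149). ETS1, counted on this list, was lower (-3.34), and which of the other cells held it was not tested. PAX7 did not pass the test (-0.27, adjusted p = 0.617). SOX10 was detected in 0.399% of surface ectoderm cells and 0.374% of other cells, and after thinning to 2500 UMIs in 0% and 0.133% of surface ectoderm cells by separate random draws.

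Within single surface ectoderm cells, markers of another tissue were counted together in sets of 3 genes. The sets were SOX2, PAX6 and SOX1, then MEOX1, TCF15 and TBX6, then LMO2, TAL1 and KDR, and last CHRD, NOTO and TBXT. They leave out lateral and intermediate mesoderm, endoderm and crest, and no rate in other cells is given. No cell had 3 of the neural genes used above, 6 had all 3 genes of a set and 39 had at least 2. Leaving out these 39 cells ended 2 of the 272 calls checked against all other cells and turned none. MESP1, an early mesoderm gene, was detected in 6 of 551 surface ectoderm cells with CDH1 (1.09%, 0.401 to 2.35) and in 4 of 201 without it (1.99%, 0.545 to 5.02). The other cells had it in 141 of 1018 with CDH1 (13.9%) and in 3182 of 23609 without (13.5%). Free RNA can give such UMIs, and its part was not tested.

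Shares of cells with a UMI at one depth of 2500 UMIs followed the levels. FABP3 was detected in 68% of surface ectoderm cells, against 1.65% of endoderm-marker, 2.24% of neural-marker and 5.76% of all other cells. ANXA2 was detected in 78.3%, against 7.69%, 2.99% and 9.92% in the same order. EPCAM was found in 68.8% of surface ectoderm cells and 61.5% of endoderm-marker cells, against 19.7% of neural-marker and 21.9% of all other cells. CDH2 was found in 4.79% of surface ectoderm cells, against 49.5%, 43.9% and 58.8%.

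Endoderm-marker cells stand for another epithelial layer of the embryo. CDH1 was detected in 73.3% of surface ectoderm cells and 12.6% of endoderm-marker cells. CDH1 helped to choose the first group, and the second could not hold cells that met the marker count, so this difference was shaped by the rules. The comparison with endoderm-marker cells and the one with all other cells use the same surface ectoderm cells and are not independent. Over 5158 genes, 251 (4.87%) were higher and 327 (6.34%) lower in surface ectoderm cells, with a median of 0.0, and without the 10S library 203 were lower. The endoderm-marker cells numbered 64, 36, 57 and 25 at 4S, 7S, 10S and 13S, and all genes used to pick them were left out of the calls.

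Several of the genes highest in surface ectoderm cells were near 0 in endoderm-marker cells. KRT17 and ZNF385C had no UMI there and were at least 28.9-fold and 33.7-fold higher in surface ectoderm cells. CXCL14, a chemokine of skin, had 110, 170, 201 and 278 CPM in surface ectoderm cells, against 0, 0, 5.81 and 0 CPM in endoderm-marker cells, where it had 2 UMIs. FABP3 had 7.32, 5.87, 8.71 and 9.1 CPM in endoderm-marker cells (6.3, SE 0.188), and NOXO1, an organizer of an NADPH oxidase, had 1850, 1630, 286 and 23.2 CPM in surface ectoderm cells, against 40.2, 46.9, 2.9 and 0 CPM in endoderm-marker cells (5.46, SE 0.178).

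The reverse set held genes of endoderm and liver. GUCA2B, a gut peptide gene, had 2.82, 1.72, 1.82 and 2.62 CPM in surface ectoderm cells, against 177, 1000, 1820 and 1490 CPM in endoderm-marker cells (-9.05, SE 0.239). The apolipoproteins APOA1 and APOH (-8.4 and -6.64), the fibrinogen chain FGB (-8.37), RBP4A (-7.74) and the homeobox gene MNX1 (-6.5) were lower. HEP21 had no UMI in surface ectoderm cells and was at least 185-fold lower.

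General epithelial genes gave few calls. EPCAM had 406, 557, 415 and 369 CPM in endoderm-marker cells (log2 fold change 0.29, adjusted p = 0.0671), DSP differed by 0.08 (adjusted p = 0.827) and ESRP2 by 0.37 (adjusted p = 0.105), which do not show equality. The keratins split, with KRT24 higher (1.38, SE 0.0894) and KRT7 and KRT18 lower in surface ectoderm cells. KRT7 had 501, 881, 912 and 934 CPM in surface ectoderm cells, against 1140, 2310, 2280 and 1630 CPM in endoderm-marker cells (-1.16, SE 0.099), and KRT18 differed by -1.31 (SE 0.129).

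The claudins split as well. CLDN3 was lower in surface ectoderm cells (-0.79, SE 0.159, adjusted p = 0.00278) and CLDN1 was higher (1.48, SE 0.335, adjusted p = 0.00662). The second call did not hold without the 7S library (1.3, adjusted p = 0.0789) or by DESeq2 (1.52, adjusted p = 0.176). In endoderm-marker cells CLDN1 had 218, 340, 662 and 519 CPM, so that the 4S libraries lay furthest apart and the 13S libraries nearest.

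Ectodermal transcription factors were higher in 6 and lower in 1 of 11 tested against endoderm-marker cells (median 1.18), with DLX5 (3.63), SP8 (3.51), GRHL3 (3.42), GATA2 (3.1) and MSX2 (2.28) among the higher ones. Only these 11 of 36 measured genes passed the filter on low counts. A level in surface ectoderm cells alone can meet that filter, so the count leans toward higher genes. By DESeq2 MSX2 did not pass (2.68, adjusted p = 0.136). Of 7 Notch genes 4 were higher and none lower (median 1.28), among them JAG2 (3.48), NOTCH1 (1.8) and LFNG (1.28). These 7 were the ones of 16 that passed the same filter. BMP4 was higher (1.7, SE 0.262) and SOSTDC1 too (3.81, SE 0.365). CDH2 was lower here also, with 410, 287, 229 and 382 CPM in endoderm-marker cells (-3.25, SE 0.281).

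**Figure D3:**
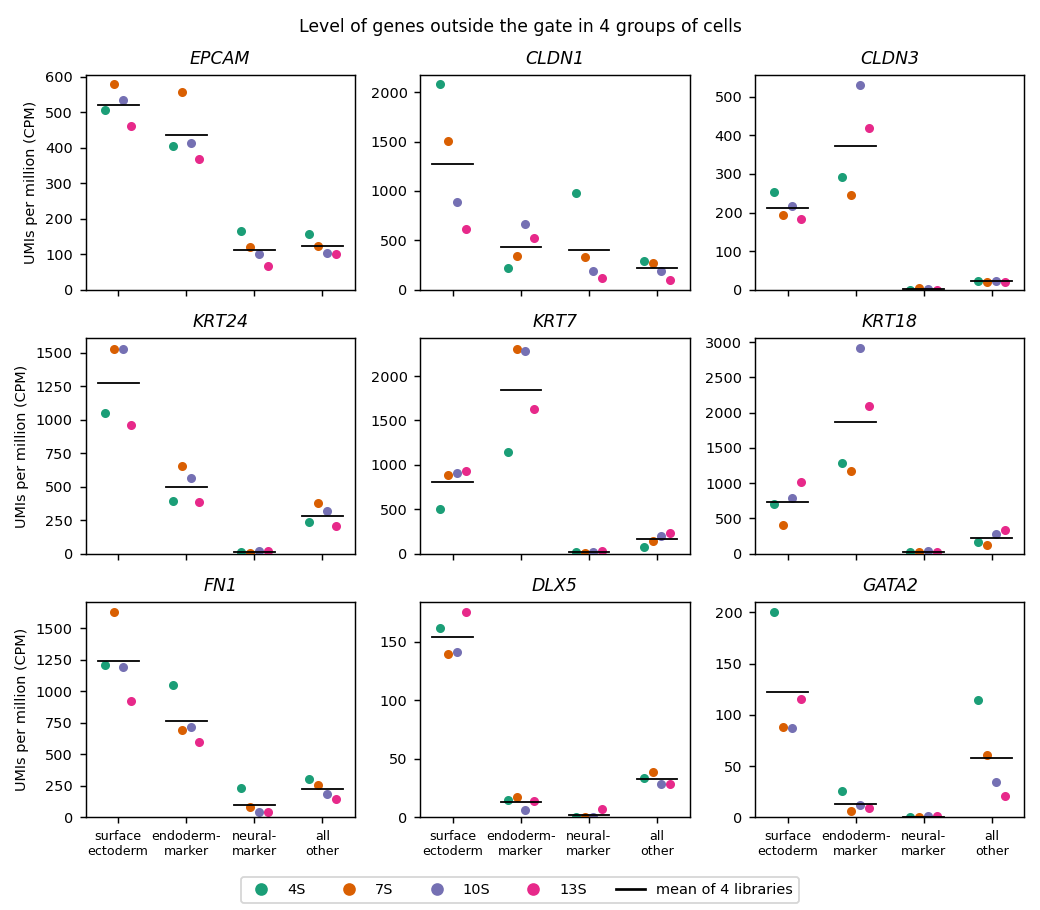
Level of 9 genes outside the rule (CPM, y axis) in surface ectoderm, endoderm-marker, neural-marker and all other cells (x axis), with 1 point for each library and a bar at the mean of the 4. EPCAM lay between 461 and 581 CPM in surface ectoderm cells and between 369 and 557 CPM in endoderm-marker cells, and the means of KRT7 and KRT18 were highest in endoderm-marker cells.

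Neural-marker cells stand for the neighbouring ectoderm. They numbered 9, 40, 183 and 169 at 4S, 7S, 10S and 13S, so the 4S values rest on few cells. Over 6980 genes, 985 (14.1%) were higher and 700 (10.0%) lower in surface ectoderm cells, with a median of 0.03. Without the 10S library these counts were 411 and 322, and without the 13S library 480 and 407.

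All 4 keratins tested were higher, and KRT24 had 11.8, 4.6, 21.9 and 19.5 CPM in neural-marker cells (6.11, SE 0.163). These are the 4 of 11 measured keratins that passed the filter on low counts, which a level in surface ectoderm cells alone can meet. KRT17 and CRYBG2 had no UMI in neural-marker cells and were at least 80.9-fold and 42.3-fold higher in surface ectoderm cells. CLDN3 had 253, 194, 217 and 184 CPM in surface ectoderm cells, against 0, 4.6, 1.93 and 0.575 CPM in neural-marker cells (7.16, SE 0.279). CXCL12 (6.7), CXCL14 (7.39) and SMAGP (6.68) were higher as well.

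Ectodermal transcription factors were higher in 11 and lower in 2 of 15 (median 4.66, or 3.94 with TFAP2C and GATA3, which had no UMI in neural-marker cells, at their bounds). Only these 15 of 36 measured genes of the list passed the filter on low counts. A gene can pass it by its level in surface ectoderm cells alone and can then hardly be lower. The count and median therefore lean toward higher genes, and the same holds for the BMP genes that follow, 15 of 26. DLX5 had 0, 0, 0.645 and 6.89 CPM in neural-marker cells (5.54, SE 0.286), and GATA2 had 0, 0, 1.29 and 1.15 CPM (6.51, SE 0.319). Of 15 BMP genes 8 were higher and 2 lower (median 0.79), with BMP4 at 0, 9.19, 2.58 and 4.02 CPM in neural-marker cells (4.33, SE 0.288) and BMP7 (4.31), ID3 (1.93) and BAMBI (2.54) among the higher ones. Of the ectodermal transcription factors, MSX2 (4.78) and MSX1 (1.19) were higher. The response gene ID1 differed by 0.0 (adjusted p = 0.998), with 1670, 1350, 1060 and 1160 CPM in surface ectoderm cells and 917, 1470, 1610 and 1290 CPM in neural-marker cells.

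Lower in surface ectoderm cells were HES5, a Notch target of neural progenitors, with 1.88, 8.6, 12.7 and 2.62 CPM, against 70.5, 814, 864 and 326 CPM in neural-marker cells (-6.22, SE 0.18). APOH (-6.43), NKX6-2, a gene of the ventral neural tube (-5.39), the zinc finger gene ZEB2 (-5.34), the G protein GNAO1 (-5.17) and the growth factor PTN (-4.29) were lower too. Of 39 genes of G2 and M phase, 24 were lower and none higher (median -0.44), with CENPF at 112, 175, 106 and 137 CPM in surface ectoderm cells and 317, 460, 280 and 355 CPM in neural-marker cells (-1.31, SE 0.113) and TOP2A differing by -0.67 (SE 0.0972).

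HOX genes, which mark position along the body axis, gave 7 higher and 15 lower of 30 tested with the CDX genes against all other cells (median -0.45). HOXB4 had 26.3, 13.8, 19.1 and 21.3 CPM in surface ectoderm cells, against 42, 46.1, 73.4 and 99.7 CPM in other cells (-1.72, SE 0.171). HOXB2 (-1.77), HOXB3 (-2.17), HOXD8 (-1.68) and HOXB9 (-1.19) were lower. CDX2 (0.57) and HOXC8 (0.9) were higher. HOXA13, the most posterior gene with a call, was higher by 1.35 (adjusted p = 0.00128) with all libraries and by 1.1 (adjusted p = 0.0544) without the 10S library. The call of HOXA13 was lost under 5 of 16 alternatives. Besides the fit without 10S, these were at least 4 markers, thinned cells, the rule without CDH1 and no block. HOXA7 was higher by 0.41 (adjusted p = 0.0187) with all libraries and by 0.45 (adjusted p = 0.0528) without the 7S library. The call of HOXA7 was also lost by DESeq2 (0.43, adjusted p = 0.195) and its direction turned under the rule without CDH1 (-0.02).

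Levels by stage come from 1 library each, with exact Poisson intervals, and no difference between stages was tested. Of 2885 genes with enough UMIs in surface ectoderm cells (at least 50 CPM in the higher of the 4S and 13S libraries and 10 UMIs in the lower), 84 (2.91%) were higher at every step and 417 (14.5%) were lower at every step. In the other cells these were 115 (4.17%) and 293 (10.6%) of 2756.

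The genes furthest down the stages began high at 4S. NOXO1 had 1850, 1630, 286 and 23.2 CPM in surface ectoderm cells, a 4S level 79.6 times that at 13S (61.8 to 104), and 148, 136, 31.8 and 8.95 CPM in other cells. PLPP1, a lipid phosphatase, had 1150, 203, 72.4 and 39.3 CPM, and 122, 58.6, 43.4 and 34.6 CPM in other cells. EGFL7, RGN, SP5, Pou5f3, FGFR3, TBXT, HTRA1 and VAV3 had 4S levels 22.1, 15.4, 9.5, 8.29, 7.59, 6.95, 6.2 and 5.84 times those at 13S. In other cells the same ratios were 3.03, 3.65, 1.69, 3.98, 1.36, 2.02, 2.21 and 0.837. CDX1, an early caudal homeobox gene, had 59.3, 24.1, 2.28 and 0 CPM and was at least 52.8-fold higher at 4S than at 13S.

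Genes higher at every stage included an adhesion molecule, HOX genes and cytoskeletal genes. ALCAM, an immunoglobulin adhesion molecule, had 9.41, 18.9, 38.7 and 62.9 CPM in surface ectoderm cells and 11.3, 12.4, 15.2 and 17.8 CPM in other cells, so the 13S level was 6.68 times that at 4S in surface ectoderm cells and 1.58 times in other cells. S100A11 had 136, 306, 367 and 531 CPM and 30.5, 26.9, 31 and 53.5 CPM, a ratio of 3.89 and 1.75. DSP had 86.5, 96.3, 164 and 244 CPM, a ratio of 2.82 in surface ectoderm cells and 3.06 in other cells. NREP, GREB1, ND6, MARCKS and CKB had ratios of 8.91, 6.07, 4.32, 3.12 and 2.93 in surface ectoderm cells, against 8.52, 12.7, 3, 1.59 and 1.66 in other cells. EMX2, a homeobox gene, had 4.7, 18.9, 47.8 and 85.3 CPM, a ratio of 18.1 (7.66 to 56.4) in surface ectoderm cells and 18.7 in other cells.

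HOX genes differed in their levels over the stages in surface ectoderm cells. HOXB9 had 0, 3.44, 27.8 and 88.3 CPM in surface ectoderm cells and 2.86, 22.1, 76 and 183 CPM in other cells, and was at least 31.3-fold higher at 13S than at 4S in surface ectoderm cells. HOXC9 (at least 23.1-fold) and HOXC6 (at least 8.88-fold) were also at 0 at 4S. HOXC8 had 1 UMI at 4S and 97.3 CPM at 13S (103-fold, 18.4 to 4100), HOXA9 was 24.8-fold higher at 13S (10.5 to 77), HOXA7 had 172, 483, 825 and 1070 CPM and HOXA4 37.6, 70.5, 82.4 and 122 CPM. HOXB1, an anterior gene, had 213, 186, 115 and 54.6 CPM.

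Genes that were higher in surface ectoderm cells than in other cells varied over the stages to different degrees. ASTL had a 4S level 11.2 times that at 13S (4.48 times in other cells), UPK1B 2.61 times (0.842 times in other cells), and GRHL3 had 99.7 CPM at 4S and 22.1 CPM at 13S. ANXA2 and SOSTDC1 had 13S levels 7.23 and 3.04 times those at 4S, against 7.53 and 3.1 times in other cells. EPCAM had 461 to 581 CPM, DLX5 139 to 175 CPM, FABP3 500 to 713 CPM and BMP4 67.1 to 78.1 CPM over the 4 stages. CLDN1 was lower at each stage, with a 4S level 3.39 times that at 13S in surface ectoderm cells and 2.87 times in other cells. The keratins did not share a direction, with KRT7 at 501 and 934 CPM and KRT23 at 16 and 6.36 CPM at 4S and 13S.

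**Figure D4:**
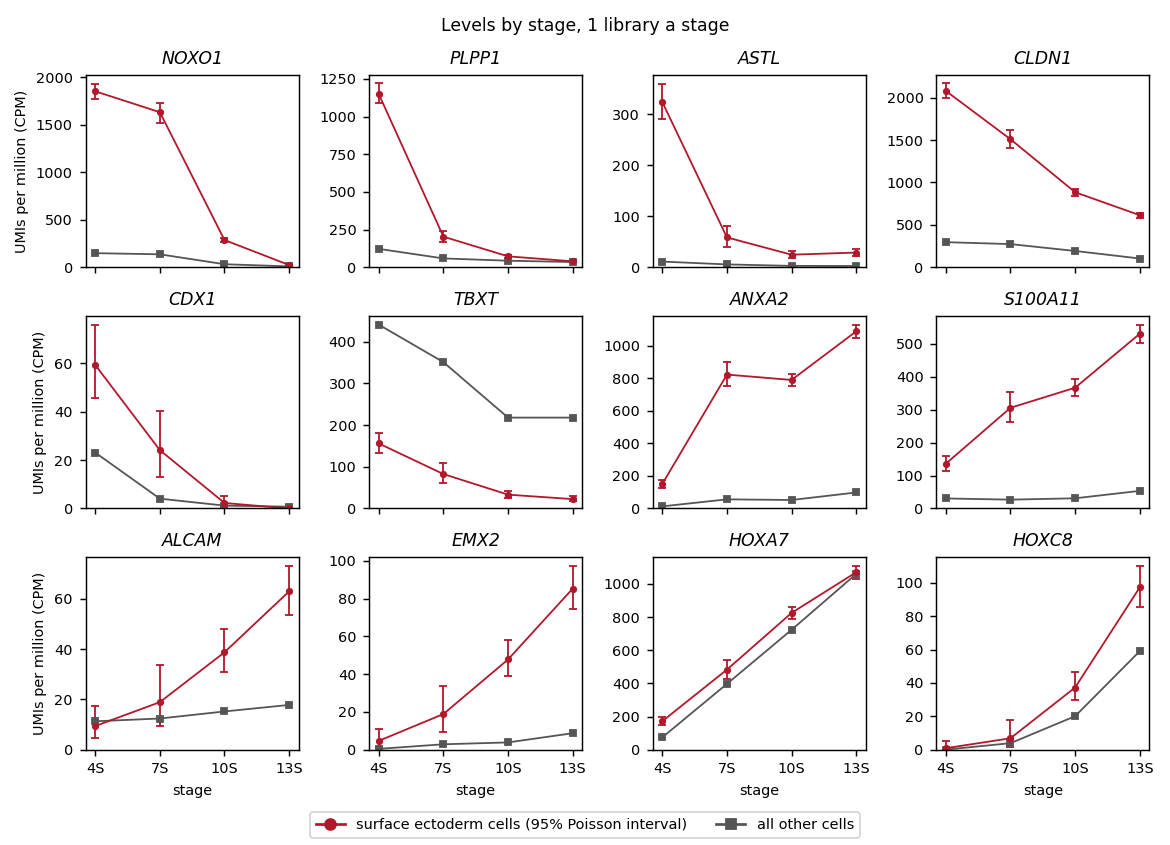
Level of 12 genes (CPM, y axis) by stage (x axis) in surface ectoderm cells, red, with 95% exact Poisson intervals, and in all other cells, grey, with 1 library a stage. NOXO1 stood at 1850 CPM at 4S and 23.2 CPM at 13S, while ANXA2 stood at 151 CPM at 4S and 1090 CPM at 13S.

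Surface ectoderm cells also varied among themselves. They were divided by whether a cell had a UMI for MEIS2, SP8, MSX2 or UPK1B, genes chosen after their values had been seen, so the values that follow are a description without a test. Cells with the gene had more UMIs, with medians of 8710 against 7762 for MEIS2, 9303 against 7617 for SP8, 9112 against 7632 for MSX2 and 8706 against 7768 for UPK1B. Ratios are of the mean CPM over the 4 libraries.

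The 305 cells with MSX2 had higher levels of BMP response genes than the 447 without it. ID2 had 767, 1060, 446 and 570 CPM in cells with MSX2, against 268, 307, 197 and 102 CPM in cells without, a ratio of 3.25. SMAD6 and BAMBI, which limit BMP signalling, had ratios of 2.77 and 2.28. The posterior genes HOXA13 and EVX1 had ratios of 16.4 (65 and 5 UMIs) and 3.37, and MEIS2 a ratio of 0.356. The 7S library had 15 of these cells.

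The 214 cells with MEIS2, a homeobox gene, differed in retinoid and patterning genes. DHRS3 had 125, 152, 167 and 112 CPM in cells with MEIS2, against 51, 95.3, 38.4 and 15.2 CPM in the 538 cells without, a ratio of 2.78. IRX1 had a ratio of 2.31 and NR2F2 of 5.68, although NR2F2 at 4S was 2.66 and 2.91 CPM. TBXT, CDX2 and MSX1 had ratios of 0.413, 0.501 and 0.512. GATA3 had 7.97 CPM in cells with MEIS2 and 18.9 CPM in cells without at 4S, but 36.5 and 2.62 CPM at 13S.

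The 229 cells with SP8, a zinc finger gene of growing appendages and the tail, carried more TBXT, with 331, 101, 67.3 and 42.9 CPM, against 56.2, 73, 14.2 and 12.3 CPM in the 523 without it (ratio 3.48). MSX1 had a ratio of 1.98, and FGF8 had 30 and 3 UMIs. The 309 cells with UPK1B had more of the keratins than the 443 without, with ratios of 2.18 for KRT17, 1.72 for KRT7, 1.67 for KRT18 and 1.59 for KRT24. KRT18 went the other way at 7S, with 382 CPM in cells with UPK1B and 435 CPM in cells without. GRHL3 (1.84) and GATA2 (1.73) were also higher in cells with UPK1B.

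**Figure D5:**
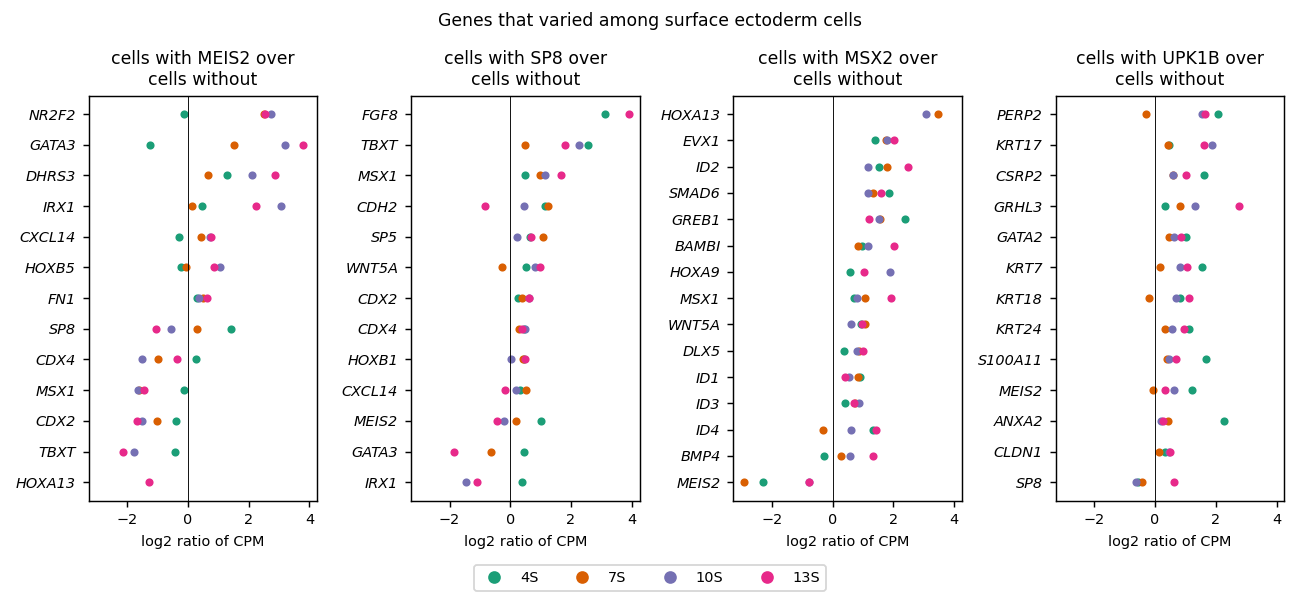
Log2 ratio of CPM in surface ectoderm cells with a UMI for MEIS2, SP8, MSX2 or UPK1B over those without (x axis), for the genes named at the left, with 1 point for each library. Libraries with no UMI on either side are not drawn, and ID2, EVX1 and SMAD6 were above 0 in all 4 libraries for MSX2.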

How the data were processed

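The deposited values were raw UMI counts per gene and cell, which the authors made by aligning reads with Cell Ranger 4.0.0 to GRCg6a and counting with DropEst. The authors removed cells by mitochondrial share, total counts and doublet score. Of 21328 genes, 8937 were listed by Ensembl identifier and were left without names. The stage was read from each cell's name, and 0 columns of per-sample values were left unused.

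Counts were summed per library and group of cells and compared with edgeR 4.0.16 in R 4.3.3 (TMM, filterByExpr, quasi-likelihood test, library as a block, Benjamini-Hochberg at 0.05). The library was the pairing, since both groups came from the same droplet library. Deviations of same-library sums correlated at 0.211 to 0.397 against all other cells, 0.117 to 0.332 against endoderm-marker and 0.155 to 0.33 against neural-marker cells. Genes of the rules that chose the cells were left out of the calls. Depth per group was 581459 to 2672096 UMIs per library for surface ectoderm cells, and intervals were exact at 95% and cover counting error only.

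The members and gene lists were chosen with earlier results of these data known. Genes were named when they belonged to a rule, to one of 25 lists, to the 20 (10 for the smaller groups) largest rises or falls among called genes with at least 20 CPM and 1 direction in 4 of 4 libraries, to the 10 largest stepwise differences over stages each way, or were named by the study for this tissue. The genes that divide the surface ectoderm cells, and those given with them, were chosen after their values were seen. Alternatives were DESeq2 1.42.0, no low-count filter, no block, each library left out, stricter and looser marker rules, thinned cells, equal totals, and sets of doubtful cells left out, 2 of them chosen after the data had been seen. No sequences or coordinates were used. Some genes of the rules and lists are not reported here.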

Additional observations from a re-analysis of the deposited data

Results flagged for a closer look

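The minimum of 2500 UMIs removed 2012 cells, all from the 7S library. Of these, 19 had at least 3 of the 5 surface ectoderm markers and no SOX17, or 0.944%, where a count of 0 would have allowed up to 0.149%. Among the 7S cells with at least 2500 UMIs the share was 1.88% (1.55 to 2.26). They lie outside every comparison above, and what they are was not tested.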

How the results depend on the processing

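Of 528 calls of named genes in the 3 comparisons, 204 were lost or turned under at least 1 alternative. Without the replicate block, 150 of the 528 were lost. The rule applied to thinned cells turned AXIN2 (-0.1), EFNA5 (-0.08), HOXA7 (-0.12), LAMB2 (-0.28) and LAMC1 (-0.29), and the rule without CDH1 turned HOXA7 (-0.02). Counts of genes higher and lower than in all other cells were 891 and 697 without the block and 634 and 807 with thinned cells. Leaving out 1 library gave 1018 to 1774 and 925 to 1742, with the lowest count of lower genes without 10S. Against endoderm-marker cells they were 148 and 198 by DESeq2, 150 and 206 without the block and 149 and 166 with thinned cells. Without the filter on low counts 570 were higher, and leaving out 1 library gave 185 to 253 and 203 to 299, again lowest without 10S. Against neural-marker cells they were 511 and 347 by DESeq2, 523 and 367 without the block and 311 and 268 with thinned cells. At least 4 markers gave 597 higher, and leaving out 1 library gave 411 to 1081 and 322 to 898. List genes lower than in all other cells numbered 92 without the block. Leaving out a library gave 89 to 117 list genes higher and 128 to 156 lower. The share of cells taken at 4S, 7S, 10S and 13S was 0.919%, 0.626%, 1.07% and 1.55% with at least 4 markers, 4.22%, 3.89%, 5.8% and 7.88% with at least 2, 1.34%, 0.846%, 1.93% and 2.41% without CDH1, and 0.149%, 0.812%, 0.577% and 0.797% with thinned cells. Genes higher at every stage numbered 32 with thinned cells. Fewer cells enter under the stricter and thinned rules (272 and 158), and for the other settings the cause was not tested. Depth limits genes under a few CPM most at 7S.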
